A study of Mus musculus and Homo sapiens with 43 samples.

Results

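The Lin28 and let-7 axis was followed here through 7 mRNAs: Lin28a, Lin28b, Trim71, Hmga2, Igf2bp1, Igf2bp2 and Igf2bp3. They were taken as a list of named genes, and all 7 were found among the 35245 genes of a first deposited expression table and the 32231 genes of a second. All 7 also passed the filter on low values in both tables. The RNA-seq libraries numbered 24, in 12 groups of 2, and came from the mouse embryonic stem cell (ESC) line E14 and cells made from it. The first table held wild type (WT) cells and cells with a CRISPR/Cas9 knock-out of Pcgf2 (Pcgf2 KO) as ESC, as embryoid bodies (EB) on day 3 and day 8, and as neural progenitor cells (NPC). The second held a Phc1 knock-out (Phc1 KO) and a knock-out of the SAM domain of Phc1 (Phc1-SAM KO), each as ESC and NPC. The proteins of Pcgf2 and Phc1 belong to canonical PRC1, a Polycomb complex that represses developmental genes, and the SAM domain lets Phc proteins polymerise. ESC of every genotype were kept in LIF (0.003 µg/mL) with the MEK inhibitor PD0325901 (1 µM) and the GSK3 inhibitor CHIR99021 (3 µM). EB are aggregates that differentiate on their own, and NPC were aggregates given 5 µM retinoic acid from day 4 until day 8. The labels do not tie the libraries to knock-out clones or separate cultures, so p-values measure only the spread between libraries. The study addressed how PRC1 shapes chromatin organisation as ESC become neural cells.

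let-7 is a family of microRNAs that accumulates as cells differentiate and represses mRNAs carrying its target sites. Lin28a and Lin28b are RNA-binding proteins that bind let-7 precursors and block their maturation, and let-7 in turn represses both Lin28 genes. Trim71 (LIN-41), an RNA-binding protein with a RING domain, the chromatin protein Hmga2 and the mRNA-binding proteins Igf2bp1, Igf2bp2 and Igf2bp3 are known let-7 targets, and high levels of the axis mark early embryonic cells and fetal progenitors. Mature let-7 was not measured in the libraries analysed, so only the mRNA side of the axis is described.

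The let-7 sequences are given because the seed, bases 2 to 8, is what most of the family shares. The name let-7j is an exception, with another last base in its seed, and is not printed. In the mouse RefSeq microRNA table (GRCm38.p6), 11 of 1679 mature names carried the seed of let-7a-5p, and 9 of the let-7 and miR-98 names among them are printed here 5′ to 3′ with the seed in capitals.
let-7a-5p: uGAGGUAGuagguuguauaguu
let-7b-5p: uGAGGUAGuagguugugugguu
let-7c-5p: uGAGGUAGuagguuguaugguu
let-7d-5p: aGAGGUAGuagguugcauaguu
let-7e-5p: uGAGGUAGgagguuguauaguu
let-7f-5p: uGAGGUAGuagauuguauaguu
let-7g-5p: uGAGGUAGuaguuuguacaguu
let-7i-5p: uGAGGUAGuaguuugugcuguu
miR-98-5p: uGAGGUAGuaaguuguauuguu

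Promoter windows of RefSeq, from 250 bases before to 50 bases after a transcription start (GRCm38.p6), were matched for 6 of the 7 genes, all on the minus strand. The windows of the paralogs Lin28a and Lin28b are printed 5′ to 3′ with each CG dinucleotide in capitals. They were picked because the mRNAs of this pair differed in opposite directions between Pcgf2 KO NPC and WT NPC. The Lin28a window lies at chr4:134018767-134019066 and the Lin28b window at chr10:45470152-45470451, both inside the annotated bounds of their genes (chr4:134003330-134019196 and chr10:45376617-45486314).
Lin28a: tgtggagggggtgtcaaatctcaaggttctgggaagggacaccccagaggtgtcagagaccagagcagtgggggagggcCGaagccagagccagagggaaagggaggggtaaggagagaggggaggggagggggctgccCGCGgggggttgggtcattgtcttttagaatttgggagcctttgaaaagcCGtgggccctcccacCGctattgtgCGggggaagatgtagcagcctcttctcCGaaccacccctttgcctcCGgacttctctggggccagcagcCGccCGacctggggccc
Lin28b: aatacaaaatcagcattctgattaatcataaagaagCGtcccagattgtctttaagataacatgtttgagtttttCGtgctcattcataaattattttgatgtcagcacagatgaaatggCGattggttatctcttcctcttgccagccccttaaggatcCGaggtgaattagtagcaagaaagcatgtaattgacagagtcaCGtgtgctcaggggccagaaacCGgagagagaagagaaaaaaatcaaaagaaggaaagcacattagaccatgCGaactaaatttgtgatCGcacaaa
On the minus strand the 5′ end of a gene is its upper bound. The Lin28a window lies close to that bound, but the Lin28b window lies well inside its gene, so they are not at like positions. The Lin28a window held 10 CG and had a GC content of 63.3%, and the Lin28b window held 8 CG with a GC content of 39.0%. The median over 32851 windows was 7 CG and 52.7% GC. Among the other members, Hmga2 had 12, Trim71 19, Igf2bp3 25 and Igf2bp2 47 CG, the last more than in 98.6% of all windows. The letters AGGTCA, a core motif bound by retinoic acid receptors, were searched on both strands and were in 0 of the 6 windows and in 16.3% of all windows.

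Levels are in TPM, a relative unit in which the transcripts of each library are scaled to 1 fixed total. The deposited totals varied, from 997222 to 1004730 TPM per library in the first table and from 975902 to 980200 TPM in the second. TPM correct for transcript length, so that genes of a library may be compared with each other. Read depth cannot be had from TPM. Tests were made on log2(TPM + 1) with limma, with p-values adjusted (Benjamini-Hochberg) over all genes tested at a threshold of 0.05, and fold changes are on that scale. The log2 values of replicate libraries had a Pearson r across genes of 0.992 to 0.995. The labels could not be checked by the targeted transcripts, because the deleted parts are not given: Pcgf2 stood at 144 to 284 TPM in the libraries labelled Pcgf2 KO and at 72.4 to 155 TPM in WT, and Phc1 at 106 to 151 TPM in the libraries labelled Phc1 KO and at 103 to 266 TPM in those labelled Phc1-SAM KO. The Y-linked gene Eif2s3y was at 0.422 to 2.78 TPM in WT ESC, EB day 3 and NPC, but at 50.4 and 64.7 TPM in WT EB day 8 and at 45.7 to 76.1 TPM in all Pcgf2 KO libraries. WT EB day 8 thus stood apart from the other WT libraries, and this difference and the stage cannot be told apart in WT comparisons that use them. In ESC, EB day 3 and NPC the same gene separated WT from Pcgf2 KO (45.7 to 64.9 TPM), so that at these 3 stages the knock-out and any other difference between the WT and Pcgf2 KO lines cannot be told apart. On EB day 8 both genotypes expressed it, but the labels do not tie those libraries to a line either, so the same limit holds there. It also holds for comparisons between stages that use EB day 8. Differences between Pcgf2 KO and WT below are therefore differences between the libraries so labelled. Eif2s3y was also at 2.04 and 5.15 TPM in Phc1-SAM KO ESC and at 34.7 and 36.6 TPM in Phc1-SAM KO NPC. In Phc1 KO it was at 14.0 and 15.8 TPM in ESC and at 31.8 and 30.7 TPM in NPC. In the Phc1 lines this difference and the stage cannot be told apart when NPC are compared with ESC. Nor can it be told apart from the genotype when their ESC are compared. When both WT EB day 8 libraries were left out of the fit, an alternative added after seeing the data, no call of a member changed in any of the 14 comparisons of the first table that do not use them. In bulk RNA, fewer cells expressing a gene and less RNA per cell cannot be told apart.

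Pcgf2 KO NPC carried these mRNAs at other levels than WT NPC. Lin28a, Trim71 and Igf2bp1 were higher, and Lin28b, Hmga2, Igf2bp2 and Igf2bp3 were lower, and the smallest of these differences, that of Lin28a, was 3.02-fold in mean TPM. All 7 passed the test, 3 upward and 4 downward, in a comparison in which 66.2% of the 17938 genes tested passed, 31.5% upward and 34.7% downward. In ESC, 3 rose and 1 fell, where 36% of genes passed (24.9% rose and 11% fell). On EB day 3, 6 of 7 fell and 0 rose, where 31.9% of genes fell, 16.7% rose and 48.6% passed in either direction. On EB day 8, 2 rose and 2 fell, where 37.7% of genes passed (20.6% rose and 17.1% fell). The median log2 fold change of the 7 was 0.15 in ESC, -0.85 on EB day 3, 0.00 on EB day 8 and -1.78 in NPC, beside 0.10, -0.11, 0.04 and -0.03 over all genes tested.

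**Figure D1:**
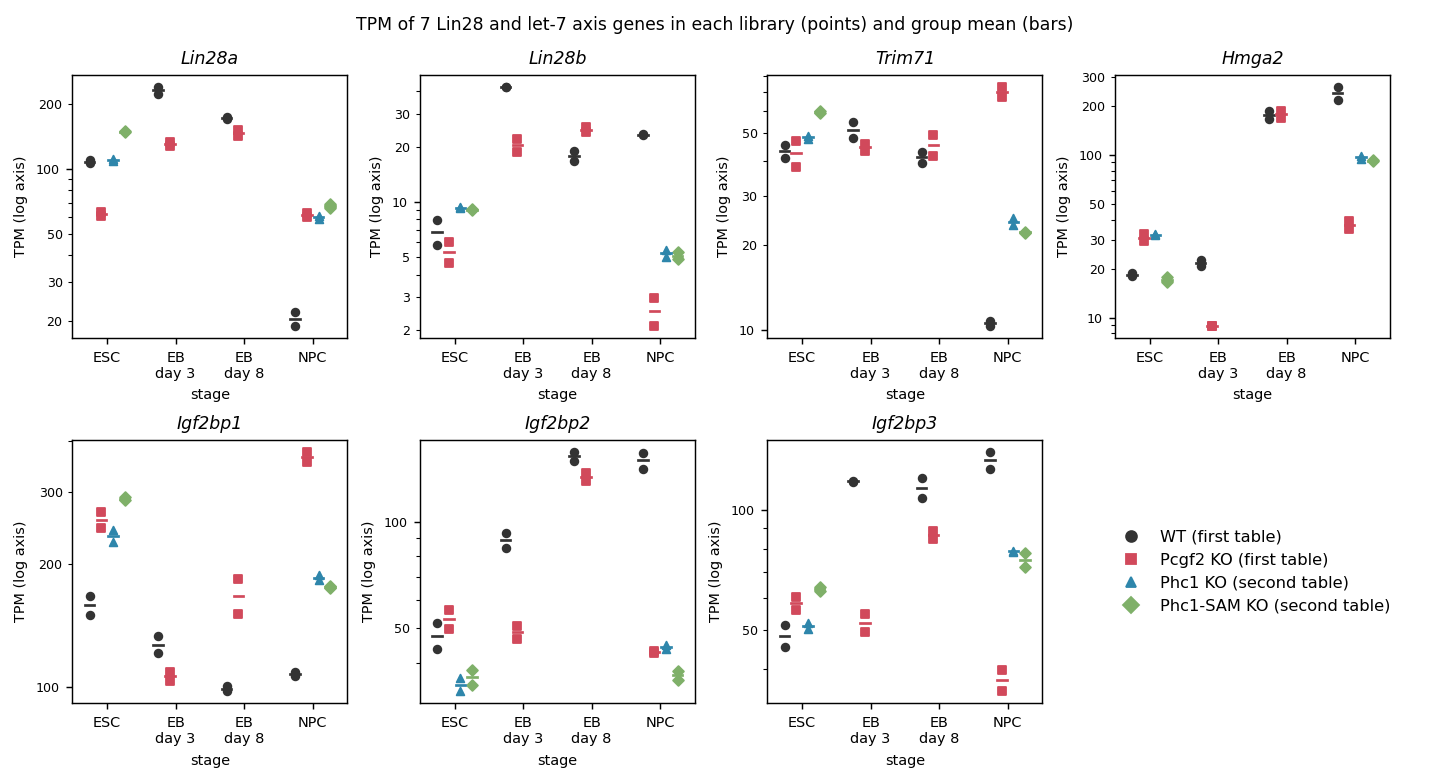
TPM on a log axis against stage for each of the 7 genes, with a point for each library, a short bar for the group mean and a colour and shape for each genotype; WT and Pcgf2 KO are from the first table and Phc1 KO and Phc1-SAM KO from the second. Lin28a and Trim71 are lowest in WT NPC (20.4 and 10.5 TPM), where Hmga2 is highest (241 TPM).

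**Figure D2:**
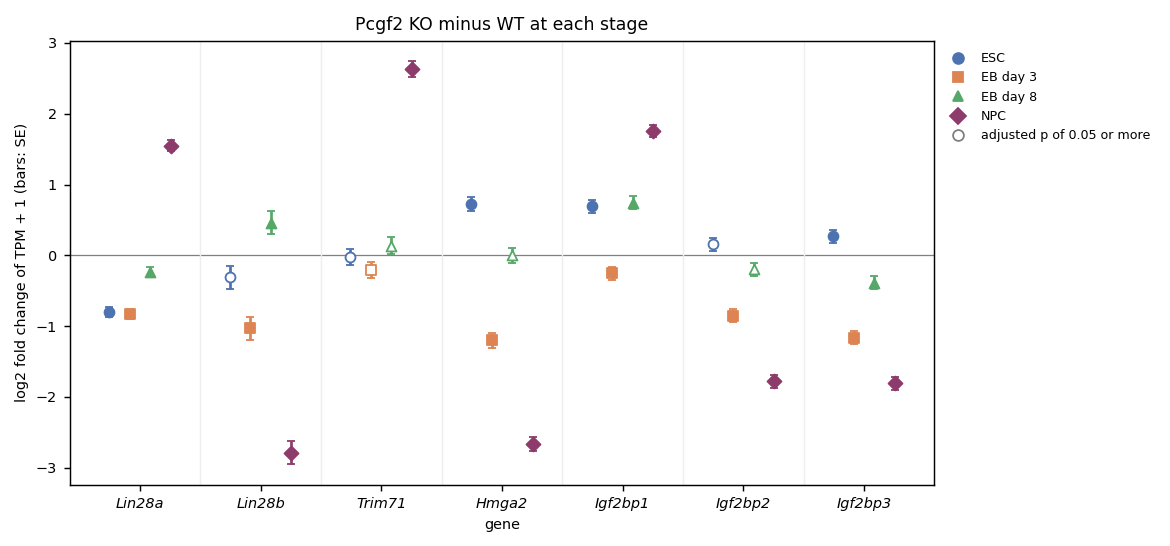
The log2 fold change of TPM + 1 between Pcgf2 KO and WT for each gene at 4 stages, with bars of 1 SE (2 libraries per group) and open symbols where the adjusted p was 0.05 or more. In NPC, 3 genes lie above 0 and 4 below it, while on EB day 3 every symbol lies below 0.

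Markers of the cells present differed between the same libraries. In NPC, all 12 genes of a naive pluripotency list rose in Pcgf2 KO (summed level 1064 to 1179 TPM, against 39.3 to 44.2 TPM in WT), 9 of 10 neural progenitor genes and 10 of 10 neuron genes fell, and Pou5f1, the stem cell factor Oct4 (named after its values were seen), stood at 0.804 and 1.48 TPM in WT libraries but 318 and 341 TPM in the knock-out. Of the neural progenitor markers, Pax3, Pax7, Sox1, Hes5 and Dbx1 were each under 1 TPM in Pcgf2 KO NPC. WT NPC also held 7 of 8 fibroblast genes at 1 TPM or more (summed level 235 to 284 TPM, against 22.6 to 25.9 TPM in Pcgf2 KO) and blood and endothelium genes at a summed level of 619 to 662 TPM, against 54.6 to 58.4 TPM. In ESC, 5 naive genes rose and 2 fell in Pcgf2 KO, and 3 neuron genes rose and 3 fell (summed level 130 to 134 TPM, against 231 to 239 TPM in WT). On EB day 3, 11 of 12 naive genes rose in Pcgf2 KO (758 to 794 TPM, against 289 to 293 TPM in WT). There 2 primed epiblast genes rose and 2 fell (811 to 819 TPM, against 1170 to 1272 TPM). Of the neural progenitor genes 2 rose and 1 fell (356 to 364 TPM, against 161 to 174 TPM). On EB day 8, 8 of 8 yolk sac endoderm genes fell (197 to 202 TPM, against 992 to 1035 TPM in WT), as did 7 of 8 fibroblast genes (187 to 209 TPM, against 1280 to 1332 TPM) and 6 of 9 blood and endothelium genes (346 to 362 TPM, against 4879 to 5529 TPM), while 9 of 12 naive genes rose (426 to 460 TPM, against 146 to 151 TPM). Lists of primed epiblast (6 genes) and cardiac and lateral mesoderm (10 genes) had 2 and 5 genes rising and 3 and 3 falling in Pcgf2 KO NPC, and 5 and 3 rising and 0 and 4 falling on EB day 8. The part of these differences in the results for the 7 genes was not tested.

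Lin28a was the more abundant Lin28 mRNA in every group but WT NPC. In WT libraries it stood at 110.5 and 107 TPM in ESC, 223 and 241 TPM on EB day 3, 175 and 171 TPM on EB day 8, and 18.8 and 22.0 TPM in NPC. WT Lin28a therefore peaked on EB day 3 and was lowest in NPC, and the 2 libraries of each WT group did not overlap with those of any other. It rose from ESC to EB day 3 by 1.09 ± 0.07 (log2 fold change ± SE, adjusted p = 2e-07) and lay 3.03 ± 0.07 lower in NPC than on EB day 8 (adjusted p = 1.1e-10). In Pcgf2 KO libraries it was 60.5 and 63.5 TPM in ESC, 127 and 133 TPM on EB day 3, 151 and 142 TPM on EB day 8, and 62.9 and 60.4 TPM in NPC. The knock-out level was thus below WT in ESC (log2 fold change -0.80, adjusted p = 1e-05) and on EB day 3 (-0.83, adjusted p = 4.3e-06), and above WT in NPC (1.55, adjusted p = 5.3e-09). Within Pcgf2 KO, Lin28a in NPC was not distinguished from ESC (log2 fold change -0.01, 95% interval -0.17 to 0.15), although both scaling alternatives gave a fall (-0.32 and -0.34, adjusted p = 0.0014 and 0.0021). The small fall on EB day 8 (-0.24, adjusted p = 0.023) did not pass with WT replicate 1, WT replicate 2 or Pcgf2 KO replicate 2 left out (adjusted p = 0.099, 0.066 and 0.14).

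Lin28b, the paralog whose protein is partly nuclear, was scarce in ESC. WT libraries had 7.92 and 5.79 TPM in ESC, 42.2 and 42.6 TPM on EB day 3, 16.6 and 18.9 TPM on EB day 8, and 23.0 and 23.5 TPM in NPC. The WT course shared its EB day 3 peak with Lin28a, but WT NPC kept Lin28b above the ESC level (log2 fold change 1.64 ± 0.16, adjusted p = 2.2e-06). Pcgf2 KO libraries had 4.62 and 6.04 TPM in ESC, 18.6 and 22.1 TPM on EB day 3, 25.6 and 23.9 TPM on EB day 8, and 2.99 and 2.09 TPM in NPC. Pcgf2 KO NPC was the lowest of the 8 groups and WT EB day 3 the highest, 16.7-fold apart. Lin28b was lower in Pcgf2 KO on EB day 3 (-1.03 ± 0.16, adjusted p = 0.00031) and in NPC (-2.79 ± 0.16, adjusted p = 3.2e-08). In ESC the libraries of both genotypes overlapped (adjusted p = 0.17, with 95% interval -0.67 to 0.05), while both rescalings, by median of ratios and by quantiles, gave a fall (adjusted p = 0.029 and 0.0038). On EB day 8 it was higher in Pcgf2 KO (0.46 ± 0.16, adjusted p = 0.044), a call that ended when any of the 4 libraries was left out (adjusted p = 0.068 to 0.2).

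The makeup of the Lin28 pair differed in WT NPC from every other group. Lin28a made up 46.7 ± 2.38% (SD, n = 2) of the summed Lin28 TPM in WT NPC and 96.1 ± 0.842% in Pcgf2 KO NPC. In the other 10 groups the share ran from 84.5% in WT EB day 3 to 94.3% in Phc1-SAM KO ESC. The sum itself was 43.7 ± 2.56 TPM in WT NPC and 64.2 ± 2.38 TPM in Pcgf2 KO NPC. The NPC of all 4 genotypes were given retinoic acid. The markers given above differed between WT NPC and Pcgf2 KO NPC, and their part was not tested.

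Trim71, a stem cell RNA-binding protein and ubiquitin ligase-type RING protein, varied little outside NPC. WT libraries had 45.5 and 40.8 TPM in ESC, 48.2 and 54.9 TPM on EB day 3, 39.4 and 43.0 TPM on EB day 8, and 10.3 and 10.8 TPM in NPC. Pcgf2 KO libraries had 38.0 and 47.0 TPM in ESC, 43.4 and 45.7 TPM on EB day 3, 49.5 and 41.6 TPM on EB day 8, and 73.4 and 67.5 TPM in NPC. In the order of the 8 group means, 5 of the 7 neighbouring pairs had overlapping libraries, and only the extremes, both NPC, stood clear. Trim71 was lower in WT NPC than in WT ESC (log2 fold change -1.94 ± 0.11, adjusted p = 2.5e-08), higher in Pcgf2 KO NPC than in Pcgf2 KO ESC (0.72 ± 0.11, adjusted p = 0.00017), and higher in Pcgf2 KO than WT NPC (2.63 ± 0.11, adjusted p = 3e-09). At the other stages no difference between the genotypes was called, though the EB day 3 libraries did not overlap. The 95% intervals of the log2 difference were -0.28 to 0.23 in ESC, -0.46 to 0.05 on EB day 3 and -0.11 to 0.39 on EB day 8. Within Pcgf2 KO, EB day 8 was not separated from day 3 (0.03), whereas both scalings called a fall (-0.29 and -0.24, adjusted p = 0.011 and 0.031). The small WT fall from EB day 3 to day 8 (-0.32, adjusted p = 0.034) did not pass without WT EB day 3 replicate 2 or WT EB day 8 replicate 1 (adjusted p = 0.21 and 0.17).

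Hmga2, a chromatin protein of embryonic and fetal progenitors, had the widest range of the 7. WT libraries had 18.8 and 17.96 TPM in ESC, 22.8 and 20.7 TPM on EB day 3, 167 and 187 TPM on EB day 8, and 264 and 218 TPM in NPC. Pcgf2 KO libraries had 29.4 and 32.7 TPM in ESC, 8.87 and 8.89 TPM on EB day 3, 187 and 168 TPM on EB day 8, and 39.0 and 34.9 TPM in NPC. The highest group mean, WT NPC, was 27.1-fold above the lowest, Pcgf2 KO EB day 3. Hmga2 was higher in Pcgf2 KO than in WT ESC (log2 fold change 0.73 ± 0.10, adjusted p = 0.00023), lower on EB day 3 (-1.20 ± 0.10, adjusted p = 3.5e-06) and lower in NPC (-2.67 ± 0.10, adjusted p = 1.1e-09). The genotypes overlapped on EB day 8 (0.00, 95% interval -0.22 to 0.23). From EB day 3 to EB day 8, Hmga2 rose in WT (2.97 ± 0.10, adjusted p = 8e-10) and in Pcgf2 KO (4.17 ± 0.10, adjusted p = 1.9e-10). With retinoic acid it was far above EB day 3 in WT (3.41 ± 0.10) and by 1.94 ± 0.10 in Pcgf2 KO, so that Pcgf2 KO NPC lay 2.23 ± 0.10 below Pcgf2 KO EB day 8 (adjusted p = 9.4e-09). The WT excess of NPC over EB day 8 was small (0.44 ± 0.10, adjusted p = 0.0034) and was lost under median-of-ratios scaling (0.21, adjusted p = 0.069).

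Igf2bp1 (IMP1), which binds and stabilises mRNAs, had its highest levels in Pcgf2 KO NPC. WT libraries had 167 and 150.5 TPM in ESC, 121 and 133 TPM on EB day 3, 97.6 and 100.4 TPM on EB day 8, and 109 and 106 TPM in NPC. Pcgf2 KO libraries had 245 and 268 TPM in ESC, 104 and 109 TPM on EB day 3, 184 and 151 TPM on EB day 8, and 377 and 355 TPM in NPC. WT thus fell from ESC to NPC (log2 fold change -0.55 ± 0.09, adjusted p = 0.00016), and Pcgf2 KO rose (0.51 ± 0.09, adjusted p = 0.00041). Pcgf2 KO was above WT in ESC (0.69 ± 0.09, adjusted p = 0.00015), on EB day 8 (0.74 ± 0.09, adjusted p = 7.9e-05) and in NPC (1.76 ± 0.09, adjusted p = 1.2e-08). The call of a lower level on EB day 3 (-0.26, adjusted p = 0.038) ended with either scaling (adjusted p = 0.81 and 0.37) and without WT replicate 2, Pcgf2 KO replicate 1 or Pcgf2 KO replicate 2 (adjusted p = 0.22, 0.16 and 0.074). Of the small WT falls, that from ESC to EB day 3 (-0.32, adjusted p = 0.011) ended without WT ESC replicate 1 or EB day 3 replicate 1 (adjusted p = 0.091 and 0.089), and that from EB day 3 to day 8 (-0.36, adjusted p = 0.0056) ended without EB day 3 replicate 2 (adjusted p = 0.054). The difference of WT NPC from EB day 3 (-0.24, adjusted p = 0.04) ended without WT EB day 3 replicate 2, NPC replicate 1 or NPC replicate 2 (adjusted p = 0.23, 0.092 and 0.13).

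Igf2bp2 (IMP2) followed a course unlike that of Igf2bp1. WT libraries had 51.7 and 43.7 TPM in ESC, 84.5 and 93.2 TPM on EB day 3, 149.6 and 158 TPM on EB day 8, and 157 and 142 TPM in NPC. Pcgf2 KO libraries had 49.9 and 56.3 TPM in ESC, 50.9 and 46.8 TPM on EB day 3, 138 and 131 TPM on EB day 8, and 42.4 and 43.2 TPM in NPC. WT NPC and WT EB day 8 overlapped at the top of the order, while Pcgf2 KO NPC was the lowest group. The knock-out was below WT on EB day 3 (-0.85 ± 0.09, adjusted p = 2.2e-05) and in NPC (-1.78 ± 0.09, adjusted p = 1.3e-08), and the differences in ESC (0.15, adjusted p = 0.23) and on EB day 8 (-0.19, adjusted p = 0.13) did not pass, although median-of-ratios scaling called the latter (adjusted p = 0.017). Within Pcgf2 KO, NPC lay slightly under ESC (-0.30 ± 0.09, adjusted p = 0.013), which ended without Pcgf2 KO ESC replicate 2 or NPC replicate 1 (adjusted p = 0.11 and 0.059). Scaling moved the comparison of Pcgf2 KO NPC with EB day 3 from no call (-0.18, adjusted p = 0.1) to a fall by median of ratios (-0.61, adjusted p = 1e-05) and by quantiles (-0.72, adjusted p = 3.7e-06). It also moved WT NPC against EB day 8 from no call (-0.04, adjusted p = 0.73) to a fall by median of ratios (-0.27, adjusted p = 0.0053).

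Igf2bp3 (IMP3), an oncofetal member of the family, moved much like Igf2bp2. WT libraries had 51.3 and 45.4 TPM in ESC, 118 and 118 TPM on EB day 3, 107 and 120.3 TPM on EB day 8, and 140.0 and 127 TPM in NPC. Pcgf2 KO libraries had 56.2 and 60.5 TPM in ESC, 49.5 and 54.8 TPM on EB day 3, 88.8 and 84.8 TPM on EB day 8, and 39.7 and 35.0 TPM in NPC. The WT level rose from ESC to EB day 3 (log2 fold change 1.27 ± 0.09, adjusted p = 3.5e-07), a step with no call in Pcgf2 KO (-0.16, 95% interval -0.36 to 0.04). Pcgf2 KO was below WT on EB day 3 (-1.16 ± 0.09, adjusted p = 1.8e-06), on EB day 8 (-0.38 ± 0.09, adjusted p = 0.0062) and in NPC (-1.81 ± 0.09, adjusted p = 9.5e-09). The EB day 8 call ended without WT EB day 8 replicate 2 (adjusted p = 0.063). The higher level in Pcgf2 KO ESC (0.27, adjusted p = 0.039) ended without WT ESC replicate 2 or Pcgf2 KO ESC replicate 2 (adjusted p = 0.26 and 0.19) and with either scaling (adjusted p = 0.14 and 0.13). The difference between WT NPC and EB day 8 (0.23, adjusted p = 0.049) ended without WT NPC replicate 1 or EB day 8 replicate 1 (adjusted p = 0.27 and 0.29) and with median-of-ratios scaling (0.00).

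The summed Igf2bp level was close in the NPC of both genotypes, at 390.5 ± 22.3 TPM (WT) and 446 ± 17.7 TPM (Pcgf2 KO; SD, n = 2), but its makeup was not. Igf2bp1 made up 27.6 ± 1.14% of it in WT NPC and 82.0 ± 0.0993% in Pcgf2 KO NPC. Igf2bp2 held 38.3% and 9.61%, and Igf2bp3 34.1% and 8.37%. On EB day 3 the sum was lower in Pcgf2 KO, at 207 ± 4.25 TPM against 334 ± 14.5 TPM, with Igf2bp1 at 51.3 ± 0.615% against 38.0 ± 0.977%. On EB day 8 Igf2bp1 made up 27.0 ± 0.744% in WT and 42.9 ± 2.55% in Pcgf2 KO, and in ESC 62.3 ± 0.697% and 69.7 ± 0.0823%.

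**Figure D3:**
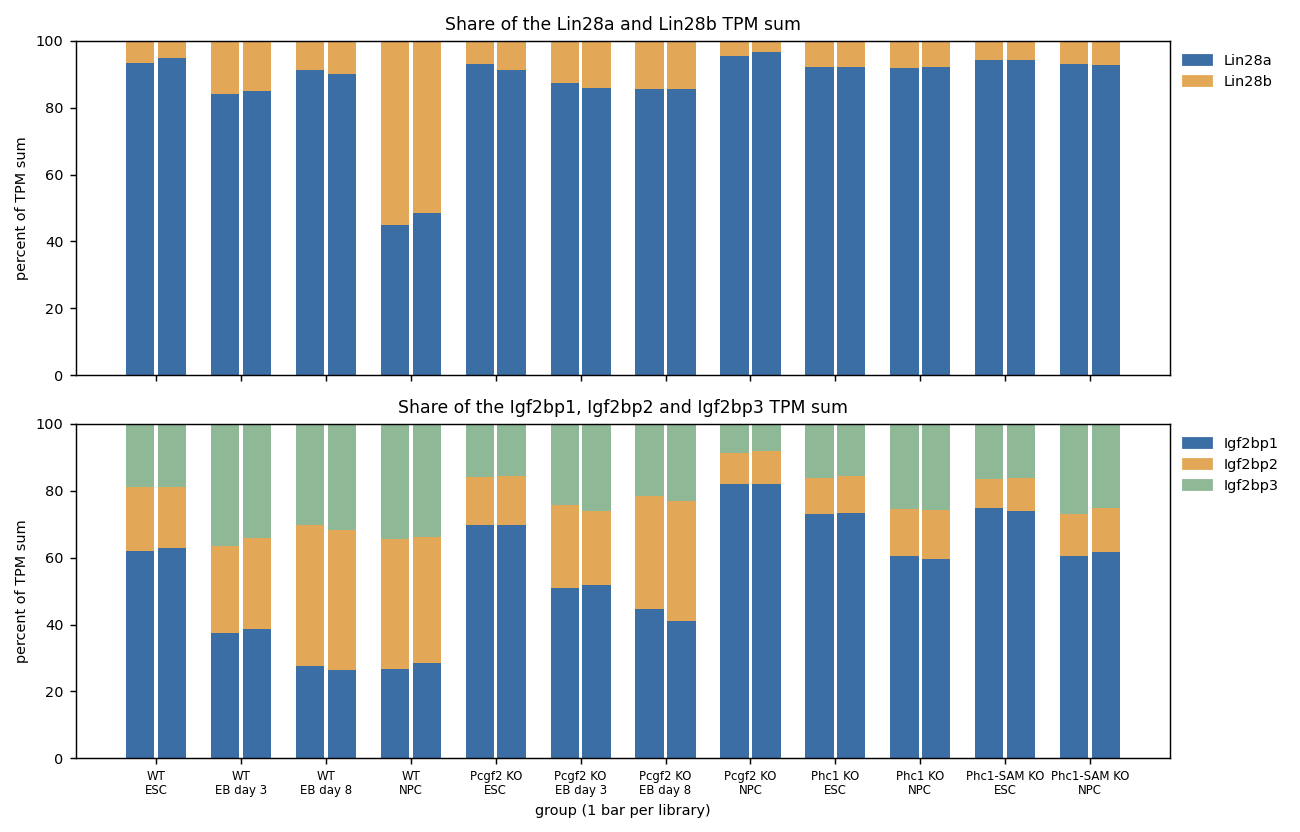
Percent of the summed TPM held by each paralog, with 1 stacked bar per library, for the Lin28 pair (upper panel) and the Igf2bp family (lower panel) in all 12 groups. The WT NPC bars show Lin28a at 46.7% and Igf2bp1 at 27.6% on average, against 96.1% and 82.0% in Pcgf2 KO NPC.

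Along the WT course, 4 of the 7 rose and 1 fell from ESC to EB day 3, where 55.8% of genes passed (36.6% rose and 19.1% fell). From EB day 3 to day 8, 2 rose and 4 fell (57.6% of genes, 33.6% up and 24% down), and with retinoic acid 2 rose and 4 fell from EB day 3 to NPC (63.1% of genes, 44.5% up and 18.6% down). WT NPC against WT ESC had 4 rising and 3 falling (75% of genes, 53.4% up and 21.6% down), and against EB day 8 2 higher and 2 lower (58.2% of genes, 38.1% up and 20.1% down). In Pcgf2 KO the counts were 2 and 2 from ESC to EB day 3 (46.2% of genes, 19.2% up and 27% down), 4 and 0 from EB day 3 to day 8 (58.7%, 43% up and 15.7% down), 3 and 3 from EB day 3 to NPC (65.6%, 49.2% up and 16.4% down), 2 and 5 for NPC against EB day 8 (62.4%, 35.8% up and 26.6% down), and 2 and 3 for NPC against ESC (66.8%, 47.5% up and 19.3% down). The rise of Trim71 from EB day 3 to NPC in Pcgf2 KO (0.65 ± 0.11, adjusted p = 0.00038) did not pass with quantile normalization (0.18, adjusted p = 0.082). TPM are relative, and the median log2 fold change of all genes tested was 0.46 between WT NPC and ESC and 0.32 in Pcgf2 KO, moving to 0.08 and 0.08 with median-of-ratios scaling. The share of called genes that were higher went from 71.2% to 54.7% in that WT comparison and from 34.3% to 54.9% in Pcgf2 KO against WT on EB day 3, while no called member changed sign.

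Whether the difference between Pcgf2 KO and WT libraries varied between stages was tested directly as a difference of differences. Between NPC and ESC it differed for all 7 members (57.2% of genes, 23% upward and 34.2% downward), as it did between NPC and EB day 3 (54.1%, 30.9% and 23.2%) and between NPC and EB day 8 (55.5%, 25% and 30.6%). Between EB day 8 and EB day 3 it differed for 6 members, with Trim71 not called (38.8%, 26.2% and 12.6%), and between EB day 3 and ESC for 5, without Lin28a and Trim71 (39.6%, 8.54% and 31.1%). The largest of these differences was that of Hmga2 between NPC and ESC (-3.39 ± 0.14), and the next were Lin28b between NPC and EB day 8 (-3.25 ± 0.23) and Trim71 between NPC and EB day 3 (2.84 ± 0.16). Lin28a between EB day 3 and ESC was called in the other direction with median-of-ratios scaling (0.33, adjusted p = 0.021, against -0.03). The Lin28b difference between EB day 3 and ESC (-0.72, adjusted p = 0.027) ended with both scalings (adjusted p = 0.15 and 0.48) and without WT ESC replicate 2, Pcgf2 KO ESC replicate 2, either WT EB day 3 library or Pcgf2 KO EB day 3 replicate 1 (adjusted p = 0.11, 0.1, 0.059, 0.07 and 0.1).

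In the second table, ESC and NPC of both Phc1 lines carried all 7 mRNAs. Phc1 KO ESC and Phc1-SAM KO ESC differed in 5 of them, with 1 higher and 4 lower in Phc1 KO, where 43.8% of the 15775 genes tested passed (30.9% higher and 12.8% lower). Hmga2 stood at 32.1 and 32.8 TPM in Phc1 KO ESC and 17.7 and 16.5 TPM in Phc1-SAM KO ESC (log2 fold change 0.89 ± 0.05, adjusted p = 2.6e-05). Lin28a was 109 and 111 TPM against 148 and 150.3 TPM (-0.43 ± 0.04, adjusted p = 0.00019). Igf2bp1, Igf2bp3 and Trim71 were lower by 0.29 to 0.31 on the log2 scale (adjusted p = 0.0011, 0.0027 and 0.0034). Lin28b (9.22 and 9.35 TPM against 8.99 and 9.14 TPM) and Igf2bp2 were not called, with 95% intervals of -0.19 to 0.25 and -0.23 to 0.10. Quantile normalization, however, called both lower (-0.35 and -0.25, adjusted p = 0.022 and 0.027), and median-of-ratios scaling called Igf2bp2 lower (adjusted p = 0.035). In the same Phc1 KO ESC libraries all 7 tested genes of the fibroblast list were higher, at a summed 495 and 516 TPM against 31.0 and 31.3 TPM, and 10 of 12 naive genes were lower (1928 and 1945 TPM against 2519 and 2559 TPM). Their part in the differences of the members was not tested.

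In NPC of the 2 Phc1 lines, 0 of 7 members passed with limma, where 4.04% of genes passed (2.52% higher and 1.52% lower) and 3 members had an unadjusted p under 0.05. Those 3 were Lin28a (60.9 and 59.2 TPM in Phc1 KO, 66.1 and 69.2 TPM in Phc1-SAM KO), Igf2bp2 (43.6 and 44.8 TPM against 35.8 and 37.8 TPM) and Trim71 (24.9 and 23.6 TPM against 22.2 and 22.1 TPM). The 95% intervals of the log2 difference were -0.26 to -0.07 for Lin28a, 0.09 to 0.42 for Igf2bp2 and 0.00 to 0.24 for Trim71. Under each of the rescalings, median of ratios and quantile, Lin28a passed (adjusted p = 0.049 and 0.031). For the remaining genes the intervals lay between -0.19 and 0.26 and included 0.

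From ESC to NPC, Phc1 KO changed in all 7 members, 3 upward and 4 downward (62.8% of genes, 35% up and 27.8% down), and Phc1-SAM KO in 6, 2 upward and 4 downward (67.6%, 43.8% up and 23.8% down). Lin28a fell in both lines (-0.86 ± 0.04 and -1.13 ± 0.04), as did Lin28b (-0.73 ± 0.09 in each), Trim71 (-0.97 ± 0.05 and -1.39 ± 0.05) and Igf2bp1 (-0.34 ± 0.04 and -0.72 ± 0.04). Lin28b libraries read 5.46 and 4.97 TPM in Phc1 KO NPC and 4.86 and 5.30 TPM in Phc1-SAM KO NPC, below their own ESC in each case. Hmga2 rose, to 95.1 and 98.2 TPM in Phc1 KO NPC and 91.8 and 93.1 TPM in Phc1-SAM KO NPC (1.55 ± 0.05 and 2.37 ± 0.05). Igf2bp3 rose in both (0.62 ± 0.05 and 0.23 ± 0.05), the second not under median-of-ratios scaling (0.05, adjusted p = 0.35), and Igf2bp2 rose in Phc1 KO (0.35 ± 0.07) with no call in Phc1-SAM KO (0.02, 95% interval -0.14 to 0.19). The change differed between the lines in 6 members, all but Lin28b, 5 with a higher and 1 with a lower change in Phc1 KO (31.9% of genes, 10.7% higher and 21.2% lower). Of these, Igf2bp2 (0.32, adjusted p = 0.044) ended without Phc1 KO ESC replicate 1, Phc1-SAM KO ESC replicate 2 or any 1 of the 4 NPC libraries (adjusted p = 0.064 to 0.13), and Lin28a (0.27, adjusted p = 0.011) ended with quantile normalization (adjusted p = 0.087). In the same difference 9 of 12 naive genes had a higher change in Phc1 KO, and 6 of 7 yolk sac endoderm genes and 7 of 7 fibroblast genes a lower one. The summed yolk sac level was 14.5 to 15.3 TPM in Phc1 KO NPC and 61.5 to 62.2 TPM in Phc1-SAM KO NPC, and the part of these markers was not tested. Both tables were normalised separately, so they were not tested against each other. Set side by side, Lin28b went from ESC to NPC by 1.64 in WT, -0.84 in Pcgf2 KO, -0.73 in Phc1 KO and -0.73 in Phc1-SAM KO. Trim71 went by -1.94, 0.72, -0.97 and -1.39 in the same order. Pou5f1 was at 381 to 422 TPM in the NPC of the Phc1 lines. Their neural progenitor sum was 76.2 to 116 TPM, with 8 (Phc1 KO) and 7 (Phc1-SAM KO) of 11 genes under 1 TPM. In WT NPC the sum was 374 to 499 TPM, with 1 gene under 1 TPM. In WT ESC it was 229 to 231 TPM, with 9 genes under 1 TPM, so the sum alone does not measure neural content.

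**Figure D4:**
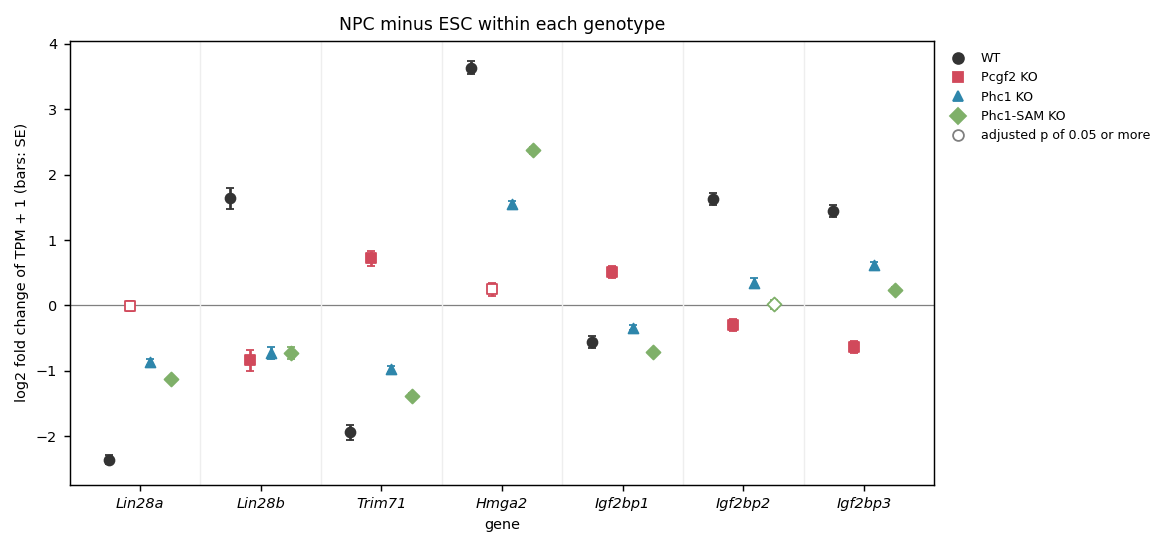
The log2 fold change of TPM + 1 from ESC to NPC within each genotype for the 7 genes, with bars of 1 SE (2 libraries per group) and open symbols where the adjusted p was 0.05 or more; WT and Pcgf2 KO come from one fit and the Phc1 lines from another. Lin28b lies above 0 in WT (1.64) and below 0 in the 3 knock-outs (-0.84, -0.73 and -0.73).

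The wider pathway was followed in 4 gene lists: 18 let-7 processing factors and effectors (Drosha, Dicer, Argonaute and Tnrc6 proteins and their helpers), 7 Lin28 partners and let-7 turnover factors, 30 further let-7 target genes, of which 29 were tested, and 7 mRNA clients of the Igf2bp proteins, of which 5 were tested in the first table. Each gene named from these lists passed the limma test in the comparison it is named for, with an adjusted p of 0.01 or less. In Pcgf2 KO against WT NPC, 3 of 18 processing factors rose and 7 fell, where 31.5% of all genes rose and 34.7% fell. The Argonaute gene Ago1 was at 20.2 ± 2.19 TPM against 72.7 ± 1.44 TPM (SD, n = 2) and Prkra, a Dicer partner, at 11.1 against 47.5 TPM, while Dgcr8, the partner of Drosha, was at 50.3 against 27.0 TPM. Among the 7 partners 1 rose and 5 fell. Msi1 (Musashi), which can recruit Lin28 to let-7 precursors, was at 16.4 against 198 TPM, and Dis3l2, the exonuclease that degrades uridylated let-7 precursors, at 6.76 against 16.3 TPM. The one that rose was Tut7, a uridylyltransferase of let-7 precursors (71.5 against 51.9 TPM).

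Of the further let-7 targets, 5 rose and 19 fell in Pcgf2 KO NPC, with a median log2 fold change of -0.61 beside -0.03 over all genes. The cyclin genes Ccnd2 (7.55 against 480 TPM) and Ccnd1 (2.64 against 65.6 TPM) had the deepest falls. The nuclear receptor gene Nr6a1 (109 against 20.1 TPM) and Arid3a (94.0 against 34.4 TPM) had the largest rises. More of these targets thus fell than rose, in a comparison where 31.5% of all genes rose and 34.7% fell. Of the members, 3 rose and 4 fell. Of the Igf2bp clients 2 rose and 3 fell, with Igf2, the growth factor mRNA the family is named for, at 84.0 TPM against 2589.6 TPM.

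On EB day 3 more genes of these lists fell than rose, as among the members. Processing factors had 1 rise and 14 falls, partners 0 and 3, further targets 3 and 23, and clients 0 and 3. Of all genes, 31.9% fell and 16.7% rose. The list counts of this and the other comparisons were not repeated under the scaling alternatives. With median-of-ratios scaling, the share of called genes that were higher on EB day 3 went from 34.3% to 54.9% over all genes. Ago2, the slicing Argonaute, was at 15.7 against 43.0 TPM, Tnrc6b, which links Argonaute to mRNA decay, at 8.83 against 21.7 TPM, and the target Prtg at 9.47 against 27.7 TPM. Mycn ran the other way, at 171 against 52.8 TPM. In ESC the lists had 2 and 1, 1 and 0, 4 and 5, and 2 and 2 rises and falls, where 24.9% of all genes rose and 11% fell. On EB day 8 they had 7 and 2, 1 and 0, 8 and 10, and 0 and 4, where 20.6% of all genes rose and 17.1% fell. Igf2 was lower in Pcgf2 KO at each of the 4 stages, and on EB day 8 it stood at 143 against 3299.7 TPM.

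In the WT course from ESC to NPC, 14 processing factors rose and 1 fell, 7 of 7 partners rose, and 20 further targets rose and 4 fell. Of all genes, 53.4% rose and 21.6% fell. Msi1 went from 21.8 to 198 TPM and Tut4, a uridylyltransferase, from 33.3 to 141 TPM. Between the 2 Phc1 lines in ESC, where 30.9% of all genes were higher and 12.8% lower in Phc1 KO, the counts were 2 and 5 of 18 processing factors, 0 and 3 of the 4 partners tested in the second table, 10 and 10 of 28 further targets, and 3 and 2 of 6 clients. The clients Cd44 (79.9 against 3.96 TPM) and Ptgs2 (51.0 against 2.93 TPM) and the target Thbs1 (43.6 against 3.07 TPM) were higher in Phc1 KO ESC, the same libraries that held the fibroblast markers. In NPC of the 2 lines, where 2.52% of all genes were higher and 1.52% lower, 4 and 0 processing factors, 0 and 0 partners, 2 and 1 targets and 1 and 0 clients passed, Igf2 among them (758 against 535 TPM).

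Across the 8 group means of the first table, the members fell into unlike courses. Igf2bp2 and Igf2bp3 were most alike (Pearson r = 0.91 of log2(TPM + 1)), followed by Hmga2 and Igf2bp2 (0.86) and Lin28b and Igf2bp3 (0.81). Lin28b and Igf2bp1 ran opposite (-0.82), and Lin28a and Lin28b were only loosely alike (0.35). Lin28a was most like Trim71 among the members (0.69). Among 13695 genes with at least 5 TPM in a group, the named gene most like Trim71 was Sall4, a zinc finger factor of stem cells (r = 0.99), that most like Lin28b was Epdr1 (0.99), and that most like Hmga2 was Ift57, a cilium transport gene (0.99). The closest to Igf2bp1 was Engase (0.99), to Igf2bp2 Spata24 (0.99), to Igf2bp3 Ube2d1 (0.97) and to Lin28a Sycp3, a meiotic chromosome gene (0.96). These are descriptions over 8 means that share libraries, chosen as the highest of many.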

How the data were processed

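RNA-seq values of 24 libraries were used. The authors deposited 2 tables of TPM per gene, and the submitters' processing notes name kallisto and mm10, without versions or annotation. The deposited TPM keep no counts, so depth is unknown and no counting interval could be given. A further 4 WT columns of the second table were not used.

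Values were taken as log2(TPM + 1). A gene was kept if 2 or more libraries had 1 TPM or more. Two-sided tests used limma (version 3.58.1; R version 4.3.3; lmFit and eBayes with trend), fitted separately for each table, with Benjamini-Hochberg adjustment over all genes at 0.05. The fits made 19 comparisons in the first table and 5 in the second, and were tested on simulated data. Alternatives were a pseudocount of 0.1, no filter, median-of-ratios scaling, quantile normalization, only the groups compared, a replicate block, leaving out each library and, added after seeing the data, leaving out WT EB day 8. The 7 members and all lists were chosen with earlier results of these data known. Named genes were the members, up to 2 called genes with the largest rise and 2 with the largest fall per pathway list and comparison, and for each member the 3 genes most like it, of which the first is named. Marker lists were naive pluripotency, primed epiblast, neural progenitor, neuron, yolk sac endoderm, cardiac and lateral mesoderm, blood and endothelium, and fibroblast. Sequences are from RefSeq on GRCm38.p6.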

Additional observations from a re-analysis of the deposited data

Results flagged for a closer look

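The difference between Pcgf2 KO and WT libraries in a member varied between stages in 32 cases. Each had an adjusted p under 0.05 by a limma test of the difference itself. Over all genes, the same tests called 39.6% for EB day 3 minus ESC and 38.8% for EB day 8 minus EB day 3. For NPC they called 54.1% against EB day 3, 55.5% against EB day 8 and 57.2% against ESC. Values are differences of log2 fold changes ± SE, the later stage minus the earlier or NPC minus the other stage. For EB day 3 minus ESC they were -0.72 ± 0.23 for Lin28b, -1.93 ± 0.14 for Hmga2, -0.95 ± 0.13 for Igf2bp1, -1.004 ± 0.13 for Igf2bp2 and -1.43 ± 0.13 for Igf2bp3. For EB day 8 minus EB day 3 they were 0.59 ± 0.10 for Lin28a, 1.49 ± 0.23 for Lin28b, 1.20 ± 0.14 for Hmga2, 1.00 ± 0.13 for Igf2bp1, 0.65 ± 0.13 for Igf2bp2 and 0.78 ± 0.13 for Igf2bp3. For NPC minus EB day 3 they were 2.38 ± 0.10 for Lin28a, -1.76 ± 0.23 for Lin28b, -1.47 ± 0.14 for Hmga2, 2.01 ± 0.13 for Igf2bp1, -0.93 ± 0.13 for Igf2bp2, -0.64 ± 0.13 for Igf2bp3 and 2.84 ± 0.16 for Trim71. For NPC minus EB day 8 they were 1.79 ± 0.10 for Lin28a, -3.25 ± 0.23 for Lin28b, -2.67 ± 0.14 for Hmga2, 1.01 ± 0.13 for Igf2bp1, -1.58 ± 0.13 for Igf2bp2, -1.43 ± 0.13 for Igf2bp3 and 2.49 ± 0.16 for Trim71. For NPC minus ESC they were 2.35 ± 0.10 for Lin28a, -2.48 ± 0.23 for Lin28b, -3.39 ± 0.14 for Hmga2, 1.07 ± 0.13 for Igf2bp1, -1.93 ± 0.13 for Igf2bp2, -2.08 ± 0.13 for Igf2bp3 and 2.66 ± 0.16 for Trim71. The ESC to NPC change differed between the Phc1 lines (Phc1 KO minus Phc1-SAM KO) by 0.27 ± 0.06 for Lin28a, -0.82 ± 0.07 for Hmga2, 0.38 ± 0.06 for Igf2bp1, 0.32 ± 0.10 for Igf2bp2, 0.38 ± 0.07 for Igf2bp3 and 0.42 ± 0.07 for Trim71. In that test 31.9% of all genes passed. The stages share no libraries within a difference, but the differences share libraries with each other, so the cases are not independent. The marker lists and Eif2s3y levels given in the report differ between the same groups, and their part was not tested.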

How the results depend on the processing

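Of 1946 member values under alternatives, 1820 kept direction and call, 65 lost the call, 15 gained one and 46 changed sign, 0 of them called in the fit reported. Of 168 member comparisons 131 were called, and 17 of these lost the call at least once. On EB day 8 the count of members called between Pcgf2 KO and WT was 4, and 1 to 3 with a library left out (2 without WT replicate 1, 1 without WT replicate 2, 2 without Pcgf2 KO replicate 2). Between the Phc1 lines in NPC, median-of-ratios scaling called 1 member and quantile normalization 1, against 0. Over all genes, calls in ESC went from 6452 to 4098 with only the groups compared, and between the Phc1 lines in NPC from 637 to 302 with the replicate block, 364 with only the groups compared and 65 to 150 with a library left out. The share of called genes that were higher in Pcgf2 KO ESC was 69.3%, and under the median-of-ratios and quantile alternatives 55.4% and 48.2%. Same-numbered libraries showed little shared deviation (r -0.18 to 0.13 in the first table, 1 of 28 pairs over 0.1, and -0.03 to 0.02 in the second). The labels do not say whether the numbers pair libraries, and a low r cannot decide it, because paired libraries without a strong shared deviation would also give one. With the replicate block, Igf2bp3 in ESC (adjusted p = 0.052), Lin28b on EB day 8 (0.059), and in WT Igf2bp1 between NPC and EB day 3 (0.051) and Igf2bp3 between NPC and EB day 8 (0.063) were no longer called. Sign changes were all in values without a call in the fit reported. With median-of-ratios scaling the sign changed for Trim71 in Pcgf2 KO vs WT, EB day 3 (0.0252), Hmga2 in Pcgf2 KO vs WT, EB day 8 (-0.0365), Hmga2 in WT: EB day 3 vs ESC (-0.005), Igf2bp3 in WT: NPC vs EB day 3 (-0.098), Igf2bp1 in WT: NPC vs EB day 8 (-0.11), Lin28a in Pcgf2 KO: EB day 8 vs EB day 3 (-0.15), Lin28b in Pcgf2 KO: EB day 8 vs EB day 3 (-0.0265), Trim71 in Pcgf2 KO: EB day 8 vs EB day 3 (-0.29), Hmga2 in Pcgf2 KO: NPC vs ESC (-0.0674), Lin28a in difference of Pcgf2 KO effect: EB day 3 vs ESC (0.33), Trim71 in difference of Pcgf2 KO effect: EB day 3 vs ESC (0.18), Lin28b in Phc1 KO vs Phc1-SAM KO, ESC (-0.11), Igf2bp2 in Phc1-SAM KO: NPC vs ESC (-0.16). With quantile normalization the sign changed for Trim71 in Pcgf2 KO vs WT, EB day 3 (0.0088), Hmga2 in WT: EB day 3 vs ESC (-0.0231), Igf2bp1 in WT: NPC vs EB day 8 (-0.0497), Igf2bp2 in Pcgf2 KO: EB day 3 vs ESC (0.0318), Lin28b in Pcgf2 KO: EB day 8 vs EB day 3 (-0.11), Trim71 in Pcgf2 KO: EB day 8 vs EB day 3 (-0.24), Hmga2 in Pcgf2 KO: NPC vs ESC (-0.19), Lin28a in difference of Pcgf2 KO effect: EB day 3 vs ESC (0.14), Trim71 in difference of Pcgf2 KO effect: EB day 3 vs ESC (0.12), Lin28b in Phc1 KO vs Phc1-SAM KO, ESC (-0.35), Igf2bp2 in Phc1-SAM KO: NPC vs ESC (-0.16). With 1 library left out the lowest and highest values were -0.18 to 0.12 for Trim71 in Pcgf2 KO vs WT, ESC, -0.0779 to 0.0819 for Hmga2 in Pcgf2 KO vs WT, EB day 8, -0.14 to 0.0269 for Igf2bp3 in WT: EB day 8 vs EB day 3, -0.12 to 0.0332 for Igf2bp2 in WT: NPC vs EB day 8, -0.0762 to 0.22 for Trim71 in Pcgf2 KO: EB day 3 vs ESC, -0.0951 to 0.15 for Trim71 in Pcgf2 KO: EB day 8 vs EB day 3, -0.0424 to 0.0262 for Lin28a in Pcgf2 KO: NPC vs ESC, -0.0836 to 0.0265 for Lin28a in difference of Pcgf2 KO effect: EB day 3 vs ESC, -0.0236 to 0.0901 for Lin28b in Phc1 KO vs Phc1-SAM KO, NPC, -0.0456 to 0.0869 for Igf2bp2 in Phc1-SAM KO: NPC vs ESC, -0.0545 to 0.0592 for Lin28b in difference of NPC vs ESC change: Phc1 KO vs Phc1-SAM KO. The cause was not tested. Depth is unknown from TPM, so no limit of detection is given.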
